A study of Rattus norvegicus with 16 samples.

Results

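The comparison described here is that of interval-trained with sedentary low capacity runner (LCR) rats, in the left ventricle. It uses 4 arrays from trained LCR rats and 4 from sedentary LCR rats, chosen by their titles, of 16 arrays in all, and all 31042 probe sets that are not spiked-in controls. LCR rats, and the high capacity runner (HCR) rats beside them, come from the outbred N:NIH stock and were bred for 16 generations for low or high treadmill capacity. All rats were described as female and were about 7 months old. Trained LCR rats ran for 8 weeks, 5 sessions a week of 1.5 hours each, alternating 8 minutes of hard uphill work (85 to 90% of maximal oxygen uptake) with 2 easier minutes. Sedentary LCR rats were of the same age and did not train. The 4 trained HCR rats and the 4 sedentary HCR rats had the same schedules. Each array holds RNA of 1 rat, taken from a piece of ventricle that mixes muscle cells with fibroblasts, vessel cells and blood cells.

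Endurance training makes the heart larger without the scarring of disease. This growth has been linked to insulin-like growth factor 1 (Igf1), Akt and the factors Cebpb and Cited4. The trained heart also takes up and burns fatty acids more readily, under control of the peroxisome proliferator-activated receptors (PPAR) and of the coactivator Ppargc1a. Genes of the overloaded failing heart, such as the natriuretic peptides Nppa and Nppb and the actin Acta1, mark the other form of cardiac growth. The comparison asks which of these and other transcripts differed with training in rats bred for poor endurance.

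The array values are log2 levels on the scale of robust multiarray averaging (RMA), so that a difference of 1 is a 2-fold change. Medians of the 8 LCR arrays lay between 5.85 and 5.91. The interquartile range averaged 2.15 ± 0.10 in trained and 2.17 ± 0.03 in sedentary LCR rats (SD, n = 4 each), a difference within the spread between rats (two-sided exact permutation p = 0.657). Correlations between LCR arrays ran from 0.989 to 0.995. The first principal component of the 8 arrays held 29.6% of their variance and did not follow training. It set 3 arrays (trained rat 2, sedentary rats 3 and 6) apart from the other 5, and no label names this division. Fam111a led the genes ranked by weight in the first component left after group means were removed from the arrays of both lines. Its mean was 4.75 in the 3 arrays and 7.59 in the other 5, but genes were not ranked by that difference. These means alone do not show whether Fam111a follows the division. Its own training difference, -3.41, was the widest of all probe sets and did not pass the test (unadjusted p = 0.092 in limma). Results below were also computed with the 2 sets as a block. Xist was low in sedentary HCR rat 5 (3.76 to 4.94 over its probe sets, against 7.56 or more in every other array). This is at odds with a female sample, and its cause was not tested. The LCR result was the same without that rat, 1 probe set called, but the HCR differences below include it.

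Only 1 probe set was called for training in LCR rats. A probe set was called at a Benjamini-Hochberg adjusted p of 0.05 or less in limma, fitted over the 4 groups and all probe sets, which 0.00322% of those tested reached. Probe set 1374916_at, which the annotation used here pairs with no gene, stood at 6.73, 6.82, 6.97 and 7.02 in trained LCR rats 1 to 4, against 6.10, 5.59, 6.10 and 5.75 in sedentary LCR rats 2, 3, 5 and 6. The groups do not overlap. The probe set rose by 1.00 ± 0.10 (SE), a 2.00-fold change, with an adjusted p of 0.000831. Within the set of 3 arrays the difference was 1.15, and within the set of 5 it was 0.81.

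For this probe set the sedentary LCR rats lay below all other rats of the study. Trained HCR rats read 6.86, 6.92, 6.84 and 6.80, and sedentary HCR rats 6.76, 6.83, 6.65 and 6.85. All 8 HCR rats therefore lay near the trained LCR rats and above every sedentary LCR rat. The HCR training difference was 0.08 ± 0.10 (SE). The response of LCR rats exceeded that of HCR rats by 0.92 ± 0.14 (SE), which had the lowest p of all probe sets for the difference in response between the lines (8.1e-06) but an adjusted p of 0.251. With the 8 LCR arrays alone in the limma fit, the difference of 1.00 had an adjusted p of 0.247.

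**Figure D1:**
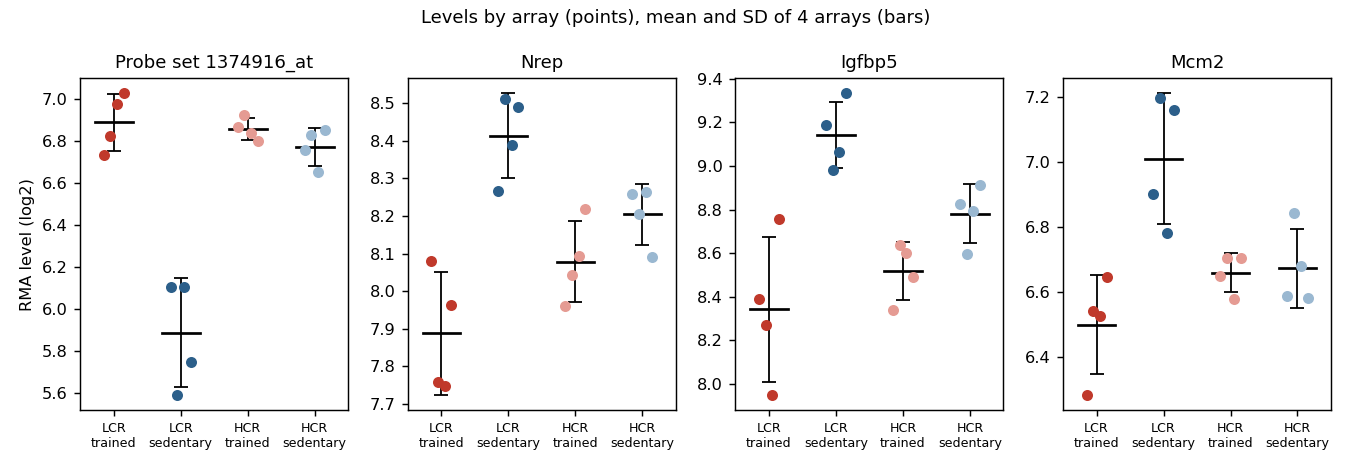
RMA level (log2, vertical axis) of the called probe set and of the genes Nrep, Igfbp5 and Mcm2 in trained LCR, sedentary LCR, trained HCR and sedentary HCR rats. Each point is an array, the line is the mean and the bar the SD of 4 arrays; for probe set 1374916_at the sedentary LCR rats, at 5.59 to 6.10, lie below all other rats.

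No named gene passed the threshold. At an unadjusted p under 0.05 there were 1728 probe sets, 5.57% of those tested, where chance alone gives 1552.1. Of these, 700 (2.26%) were higher and 1028 (3.31%) lower in trained rats, and 844 (48.8%) had the same sign in HCR training. With 1 LCR rat left out, the count of 1728 ran from 1201 (without sedentary rat 6) to 2365 (without trained rat 4). With the 8 LCR arrays alone it was 1419, so it fell below the chance count in some settings. At the level of genes, each taken by its brightest probe set, 315 of 14217 (2.22%) were higher and 647 (4.55%) lower. The 4 trained and 4 sedentary values did not overlap for 486 genes (3.42%), 188 (1.32%) higher and 298 (2.1%) lower. Only 15 probe sets differed by more than 2-fold. The next adjusted p after that of the called probe set was 0.123, so all genes below are given as values that did not pass.

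**Figure D2:**
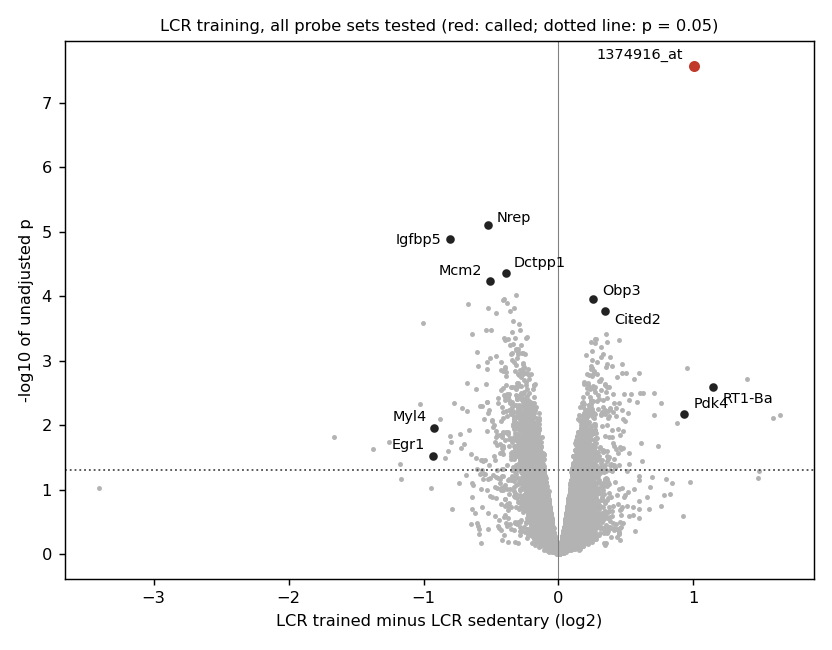
Difference between trained and sedentary LCR rats (log2, horizontal axis) and −log10 of the unadjusted p (vertical axis) for all 31042 probe sets. Probe set 1374916_at, in red, stands alone at the top right; Nrep (-0.53) and Igfbp5 (-0.80) lead the lower side.

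Nrep and Igfbp5 stood next in rank, both lower in trained rats. Nrep encodes a small intracellular protein linked to TGF-beta signalling and tissue repair. Nrep read 8.08, 7.76, 7.75 and 7.96 in trained rats, against 8.27, 8.51, 8.39 and 8.49 in sedentary rats, a difference of -0.53 ± 0.08 (SE, adjusted p = 0.123). Every trained rat lay below every sedentary rat. Igfbp5, a secreted protein that binds insulin-like growth factors, read 8.39, 8.27, 7.95 and 8.75 in trained rats, against 9.19, 8.98, 9.07 and 9.33 in sedentary rats. Its difference was -0.80 ± 0.13 (SE, adjusted p = 0.133), again without overlap, and its other 4 probe sets were also lower, by 0.01 to 0.27. In HCR rats the training differences were -0.13 for Nrep and -0.26 for Igfbp5. Leaving out 1 rat brought either gene past the threshold. Without trained rat 1, Nrep had an adjusted p of 0.0229, and without trained rat 4, Igfbp5 had one of 0.00624.

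Among genes whose groups do not overlap, the 12 of lowest p on the lower side, Nrep and Igfbp5 included, have varied roles. Zfp423 (-0.52, adjusted p = 0.351) had a lower p than some of them but is left out, as its groups overlap. It was called without trained rat 2. Dctpp1, which breaks down modified dCTP, differed by -0.39 ± 0.07 (SE, adjusted p = 0.336). Mcm2 and Gins4, parts of the helicase that opens DNA for replication, differed by -0.51 and -0.36. Hat1, which acetylates new histone H4, differed by -0.28. Papss1, which makes the sulfate donor for proteoglycans, differed by -0.33, and Colgalt2, which attaches galactose to collagen, by -0.31. Lclat1, an acyltransferase that remodels cardiolipin, differed by -0.40. The small GTPase Rab20 (-0.38, adjusted p = 0.0229 without trained rat 1), Scfd2 (-0.29) and R3hdm2 (-0.33, with 1 other probe set of opposite sign) complete the 12. Their adjusted p ran from 0.123 to 0.428. These genes were picked for not overlapping, so neither that property nor their sign within a set of arrays is a result. Their HCR training differences ran from -0.26 to 0.11.

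The 12 genes picked in the same way on the higher side had smaller differences, 0.24 to 0.45, and adjusted p from 0.351 to 0.479. Cited2, a coregulator that restrains hypoxia-inducible factor, read 9.45, 9.35, 9.53 and 9.47 in trained rats, against 9.10, 9.07, 9.05 and 9.19 in sedentary rats. Its difference was 0.35 ± 0.07 (SE), and its other probe set was higher by 0.26. Mtfp1, which promotes mitochondrial fission, differed by 0.35. Dgat1, which catalyses the last step of triglyceride synthesis, differed by 0.25. Slc40a1, the iron exporter ferroportin, differed by 0.36 and its other 2 probe sets by 0.35 and 0.27. Kcnd2, a subunit of the transient outward potassium current, differed by 0.33. The acute-phase protein Orm1 differed by 0.45, the scavenger-receptor protein Dmbt1 by 0.24 and the cytoskeletal linker Rdx by 0.27, where 4 other Rdx probe sets were higher by 0.03 to 0.16. Obp3, of the odorant-binding lipocalins, whose near-identical family members its probe set may not tell apart, differed by 0.26, Tmem116 by 0.36, Scyl3 by 0.31 and the phosphatase Ppm1j by 0.39. Tmem116 and Scyl3 each had 1 other probe set of opposite sign. HCR training differences of the 12 genes ran from -0.14 for Rdx to 0.55 for Ppm1j. Tmem116 (0.29), Mtfp1 (0.26) and Dgat1 (0.21) came next below Ppm1j, while Rdx, Dmbt1 and Scyl3 were lower in trained HCR rats.

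Of the lists of genes described from here on, DNA replication held the most members with low p. The MCM2 to 7 proteins form the ring that unwinds DNA in dividing cells, while the ventricle's muscle cells rarely divide. Of 26 measured genes of cell cycle and DNA replication, 18 were lower in trained rats, where 52% of all genes were. At an unadjusted p under 0.05, 8 were lower, against 4.55% of all genes, and 2 were higher, against 2.22%. In 7 of the 26 the groups did not overlap, against 3.42% of all genes. The median difference over the list was -0.07, beside -0.0045 over all genes. The count of 8 ranged from 5, with only probe sets at or above the median level, to 8 over the alternatives tried. It was 7 with the sets of arrays as a block, where the 2 higher genes became 0. In HCR training the list's median was -0.09, with 2 members lower at a p under 0.05, against 6.71% of all genes.

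All 6 MCM genes were lower in trained LCR rats, with a median difference of -0.34. Of them 5 were lower without overlap and 5 at an unadjusted p under 0.05. Over all genes 2.1% were lower without overlap and 4.55% lower at that p. Mcm2 read 6.29, 6.54, 6.53 and 6.65 in trained rats, against 6.90, 7.20, 6.78 and 7.16 in sedentary rats, with an adjusted p of 0.351. Mcm6 read 5.24, 5.06, 4.99 and 5.15 in trained rats, against 5.40, 5.48, 5.39 and 5.39 in sedentary rats. Mcm5 read 6.57, 6.64, 6.43 and 6.63 in trained rats, against 6.98, 6.78, 6.87 and 7.16 in sedentary rats. Every trained rat lay below every sedentary rat for each of these 3 genes. Mcm4 differed by -0.38 ± 0.11 (SE), Mcm7 by -0.23 ± 0.07 (SE) and Mcm3, whose groups overlap, by -0.10 ± 0.07 (SE). Mcm3, the 1 gene of the 6 whose groups overlap, differed by -0.0088 within the set of 3 arrays and by -0.15 within the set of 5. In HCR training the 6 differences ran from -0.14 to 0.08, and the adjusted p for a different response of the lines ran from 0.475 to 0.594.

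Promoters of 3 MCM genes are shown because E2F factors are known to switch these genes on together at the start of DNA synthesis. Each is the 250 bases before the RefSeq start site in build GRCr8, with matches to the letters TTTCGCGC, TTTGGCGC or TTTCCCGC on either strand in capitals. Matches on opposite strands overlap in the first match of Mcm5 and in those of Mcm2 and Mcm6.
Mcm2, chr4:122918095-122918344, minus strand: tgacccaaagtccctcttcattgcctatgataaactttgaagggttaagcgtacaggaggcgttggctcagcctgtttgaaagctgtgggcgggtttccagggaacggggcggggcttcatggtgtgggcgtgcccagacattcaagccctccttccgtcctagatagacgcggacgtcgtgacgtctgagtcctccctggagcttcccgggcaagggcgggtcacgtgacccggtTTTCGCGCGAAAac
Mcm5, chr19:13488563-13488812, plus strand: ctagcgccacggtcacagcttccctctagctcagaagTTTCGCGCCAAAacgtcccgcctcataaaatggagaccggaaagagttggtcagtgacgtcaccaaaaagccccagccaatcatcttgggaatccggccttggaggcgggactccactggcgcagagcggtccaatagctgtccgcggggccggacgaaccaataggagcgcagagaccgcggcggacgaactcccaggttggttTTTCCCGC
Mcm6, chr13:42404353-42404602, minus strand: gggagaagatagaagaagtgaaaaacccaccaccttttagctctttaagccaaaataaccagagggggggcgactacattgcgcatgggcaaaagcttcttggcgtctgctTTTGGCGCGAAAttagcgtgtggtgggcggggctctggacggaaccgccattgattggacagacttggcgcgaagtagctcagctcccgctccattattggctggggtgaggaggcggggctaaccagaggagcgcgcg
Of 33469 RefSeq promoter windows of 300 bases, which run 50 bases past the start, 0.326% held TTTCGCGC, 0.493% TTTGGCGC, 0.974% TTTCCCGC and 1.72% any of them. Mcm3 and Mcm7, whose windows were also searched, held matches as well. Mcm4 had no entry among the windows and was not searched. A match describes the letters only, and no binding was measured.

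Other genes of the cell cycle did not follow the MCM genes as a body. Rrm1, a subunit of the enzyme that makes deoxynucleotides, differed by -0.29, Cdc20, an activator of mitotic exit, by -0.16 (with 1 of 4 other probe sets of opposite sign) and Ccnb1, the mitotic cyclin B1, by -0.16. The replication clamp Pcna differed by -0.08 (adjusted p = 0.987) with overlapping groups. Top2a and Mki67, both markers of dividing cells, differed by 0.06 (with 1 other probe set of opposite sign) and 0.03. The mitotic kinase Aurkb differed by 0.17. Mean levels of Top2a, Mki67 and Aurkb (5.83, 5.12 and 5.45) lay below the array medians. So did those of Cdc20, Mcm3, Mcm4 and Mcm6 (5.82, 5.83, 5.51 and 5.24). Low levels can understate differences. Cdkn1a, the p21 inhibitor of cyclin-dependent kinases, read 10.14, 10.48, 10.43 and 10.46 in trained rats, against 10.26, 9.75, 9.87 and 10.04 in sedentary rats, a difference of 0.40 ± 0.18 (SE). In a homogenate of ventricle, fewer cells of a dividing type and less of each transcript per cell cannot be told apart.

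**Figure D3:**
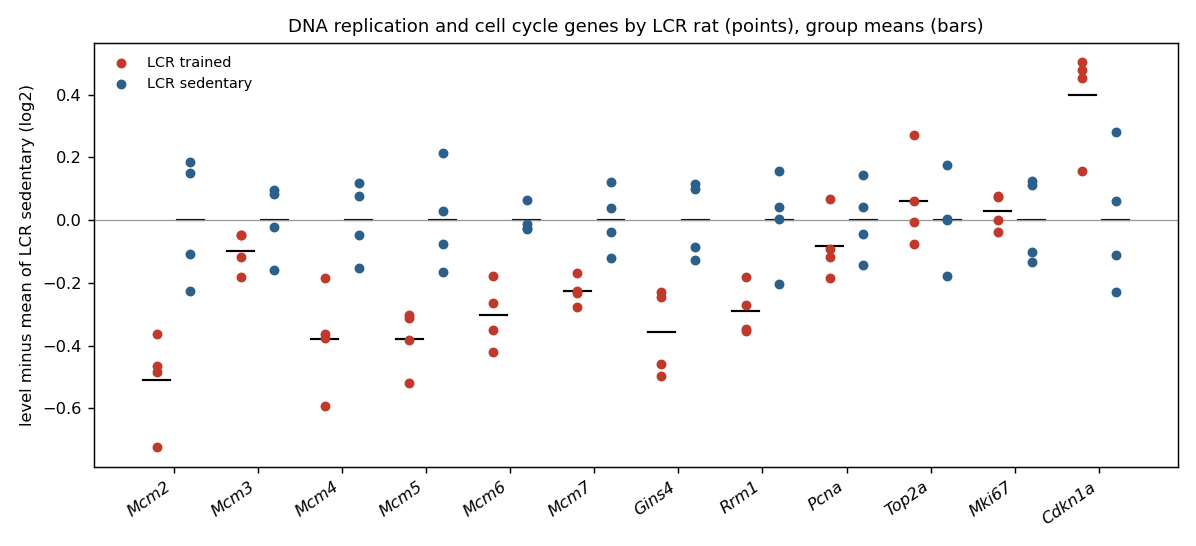
Level relative to the mean of the sedentary LCR rats (log2, vertical axis) for DNA replication and cell cycle genes; points are LCR rats, trained on the left of each pair, and bars are group means. The trained rats lie below the sedentary rats for Mcm2, Mcm4, Mcm5, Mcm6, Mcm7 and Gins4 and among them for Pcna, Top2a and Mki67.

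Genes that PPAR controls leaned to higher levels in trained LCR rats. Of 14 measured PPAR targets and fuel-switch genes, 11 were higher, where 48% of all genes were, and 4 were higher at an unadjusted p under 0.05, against 2.22% of all genes. None was lower at that p. Their median difference was 0.10, which ran over the alternatives from 0.06 (without sedentary rat 2) to 0.16 (without trained rat 4), and in HCR training it was 0.01. Of 23 genes of fatty acid uptake and oxidation, 19 were higher and 2 at a p under 0.05, with a median of 0.06 in LCR and 0.03 in HCR rats. The LCR median was 0.02 without sedentary rat 2, 0.11 without sedentary rat 3 and 0.10 with the sets of arrays as a block. With the sets of arrays as a block the 2 became 5, and without trained rat 3 the 2 became 1.

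Pdk4, the kinase that shuts pyruvate out of the mitochondrion, had the widest difference of the PPAR list. Pdk4 read 10.20, 10.33, 10.93 and 10.08 in trained rats, against 8.79, 10.35, 9.09 and 9.58 in sedentary rats, a difference of 0.93 ± 0.30 (SE, adjusted p = 0.629). The trained rats all lay above 10, while sedentary rat 3 stood among them and the other 3 sedentary rats did not. Its other probe set was higher by 0.52. In HCR training Pdk4 differed by 0.12. Plin5, which coats lipid droplets beside mitochondria, read 9.14, 9.43, 9.04 and 8.94 in trained rats, against 8.51, 8.98, 8.51 and 8.84 in sedentary rats, a difference of 0.43 ± 0.12 (SE). The groups touch only at trained rat 4 and sedentary rat 3. Ucp3, a mitochondrial carrier of the inner membrane, differed by 0.45, and Plin2, another droplet coat, by 0.21.

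Trained rat 3 was high for several of these genes. Angptl4, a PPAR target that inhibits lipoprotein lipase, read 8.30 in trained rat 3, against 5.33, 5.42 and 5.30 in the other 3 trained rats and 4.96 to 5.63 in sedentary rats. Its difference of 0.82 becomes 0.09 without that rat. Ucp3 read 8.74 in rat 3 and 7.72 to 8.09 in the other trained rats, and its difference becomes 0.26. For Pdk4 the difference without rat 3 is 0.75, for Plin5 it is 0.46 and for Slc27a1 it is 0.29. Pnpla2, described next, differs by 0.32 without rat 3.

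Values follow for single genes of lipid release and uptake. Pnpla2, the first lipase of triglyceride breakdown, read 10.70, 10.66, 11.25 and 10.52 in trained rats, against 10.23, 10.37, 10.25 and 10.39 in sedentary rats, a difference of 0.47 ± 0.13 (SE, adjusted p = 0.479) without overlap. The hormone-sensitive lipase Lipe differed by 0.19, also without overlap, and the droplet protein Cidea by 0.27. Slc27a1, which carries fatty acids into the cell, differed by 0.34, and Eci2, of unsaturated fatty acid oxidation, by 0.18. Cpt1a, an entry enzyme of fatty acid oxidation, differed by 0.35 (adjusted p = 0.898), and its dimmer probe set by 0.30. Cpt1b, the form that prevails in heart muscle, differed by 0.05. Fat cells also express these lipases, and of 13 adipocyte markers measured 11 were higher, where 48% of all genes were. At an unadjusted p under 0.05, 3 were higher, namely Pnpla2, Cidea and Lipe, against 2.22% of all genes, and the 3 became 1 without sedentary rat 5. The adipocyte hormone Adipoq differed by 0.03, at 5.19 to 5.63 in trained and 5.32 to 5.42 in sedentary rats. The mean of the adipocyte markers, relative to all 16 arrays, ran from -0.06 to 0.08 in trained and from -0.09 to -0.06 in sedentary rats.

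**Figure D4:**
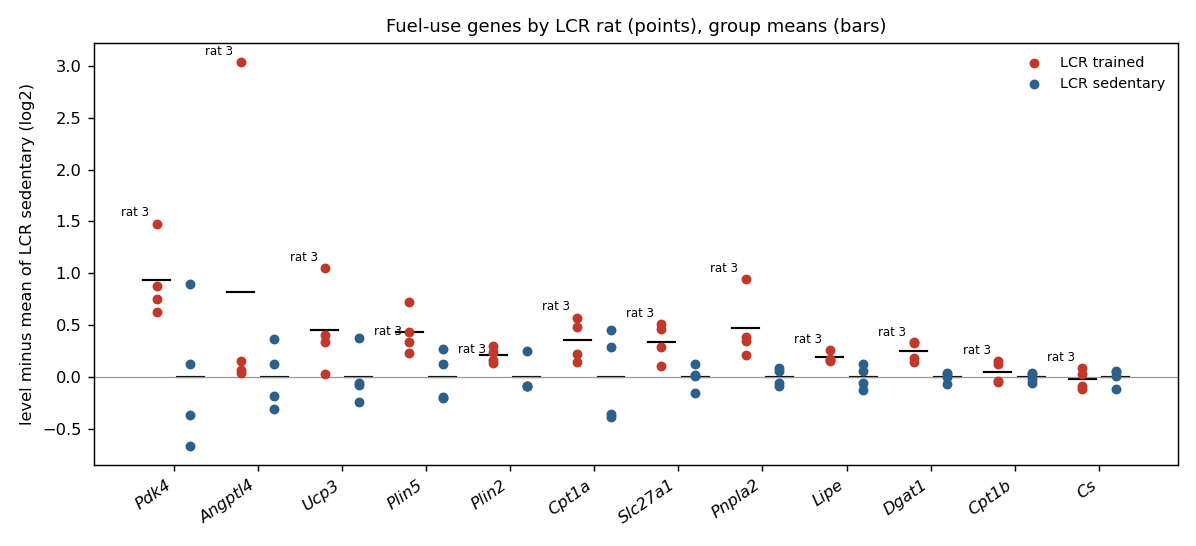
Level relative to the mean of the sedentary LCR rats (log2, vertical axis) for genes of fuel use; points are LCR rats, trained on the left of each pair with rat 3 marked, and bars are group means. Rat 3 is the highest trained rat for Pdk4, Angptl4, Ucp3, Pnpla2, Slc27a1 and Lipe, while Cpt1b and Cs show no separation.

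The mitochondrial machinery itself showed little. None of 26 genes of respiratory complex I and none of 20 genes of the citric acid cycle and pyruvate entry had an unadjusted p under 0.05, against 6.77% of all genes, and their medians were 0.01 and -0.03. The transcript of citrate synthase (Cs), an enzyme used to gauge mitochondrial content, differed by -0.02 ± 0.06 (SE). That of the coactivator Ppargc1a differed by -0.03 ± 0.11 (SE), with 1 of its 2 other probe sets of opposite sign. Mitochondrial content itself was not measured. Of 24 genes of complexes III to V, 1 had a p under 0.05. This was Cox7a1, the muscle form of a cytochrome oxidase subunit, which read 10.15, 10.61, 10.11 and 10.50 in trained rats, against 9.48, 10.03, 9.92 and 9.96 in sedentary rats. Its difference was 0.49 ± 0.17 (SE, adjusted p = 0.663), and in HCR training it was 0.48. The uncoupling protein Ucp2 differed by -0.53 with overlap, and the antioxidant enzyme Sod2 by 0.01. The insulin-responsive glucose carrier Slc2a4 differed by 0.06. Of 12 genes of creatine kinase and AMP-activated kinase, 3 were lower at a p under 0.05, against 4.55% of all genes. These were Prkag2 (-0.32, with 2 of 3 other probe sets of opposite sign), the brain-type creatine kinase Ckb (-0.32) and Gatm (-0.21), which makes the precursor of creatine.

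Of 20 sarcomere genes, 10 were higher and 10 lower in trained rats, with 1 each at an unadjusted p under 0.05, against 2.22% of all genes higher and 4.55% lower. The median of 13 load-responsive fetal genes was -0.09, with 2 lower at that p and none higher, and it ran from -0.17 to 0.04 over the alternatives. The myosin heavy chains Myh6 and Myh7 differed by 0.05 ± 0.07 and -0.09 ± 0.22 (SE), with 1 other Myh7 probe set of opposite sign. Acta1, skeletal alpha-actin, read 10.91, 12.05, 11.20 and 12.17 in trained rats, against 12.74, 11.67, 12.76 and 12.05 in sedentary rats, a difference of -0.72 ± 0.29 (SE, adjusted p = 0.824). Its difference was -1.33 within the set of 5 arrays and 0.19 within the set of 3, so its sign changes between them. Nppa, the atrial natriuretic peptide, differed by -0.50 ± 0.31 (SE) and Nppb, the brain natriuretic peptide, by 0.03 ± 0.18 (SE).

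All 9 measured markers of atrial muscle were lower in trained rats, 3 of them at an unadjusted p under 0.05, against 4.55% of all genes, with a median of -0.21, which was -0.13 without trained rat 1. In HCR training the median was -0.14. Myl4, the atrial essential light chain, read 7.43, 7.73, 7.24 and 8.08 in trained rats, against 8.52, 8.33, 7.94 and 9.37 in sedentary rats, a difference of -0.92 ± 0.32 (SE). Trained rat 4 overlaps sedentary rat 5. Sln, an inhibitor of the calcium pump in atria, differed by -0.32 and the potassium channel gene Kcna5 by -0.20. Myl7, the atrial regulatory light chain, spread from 5.47 to 7.99 in trained and from 6.02 to 7.49 in sedentary rats. The mean of the 9 markers, relative to all 16 arrays, ran from -0.46 to 0.18 in trained and from -0.06 to 0.19 in sedentary rats. How much atrial tissue each piece held was not measured, and its part in these values was not tested. Without sedentary rat 6 no atrial marker was lower at a p under 0.05.

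Calcium handling and ion channels held a few of the lower p values. The calcium pump Atp2a2 (SERCA2) and its inhibitor Pln differed by 0.01 and 0.03, with an SE of 0.04 each, and each had 1 other probe set of opposite sign. Camk2d, the calmodulin-dependent kinase that prevails in heart, read 10.46, 10.51, 10.38 and 10.51 in trained rats, against 10.66, 10.62, 10.74 and 10.79 in sedentary rats. Its difference was -0.24 ± 0.05 (SE, adjusted p = 0.428) without overlap, against 0.17 in HCR training. S100a1, which enhances calcium release and uptake, read 9.04, 9.24, 9.12 and 9.28 in trained rats, against 9.37, 9.53, 9.42 and 9.59 in sedentary rats, a difference of -0.31. Both genes were lower in every trained rat. Of 17 channel genes, Kcnd2 and Kcnj5 (0.36), a subunit of the acetylcholine-gated potassium channel, were higher at a p under 0.05. Kcnh2, of the rapid delayed rectifier, was among the 2 lower ones, at -0.20 without overlap. Over all genes 2.22% were higher and 4.55% lower at that p.

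Growth signalling gave mixed values. Igf1 read 8.88, 8.53, 9.08 and 9.14 in trained rats, against 8.45, 8.64, 8.57 and 8.44 in sedentary rats, a difference of 0.38 ± 0.12 (SE, adjusted p = 0.628). Trained rat 2 lay among the sedentary rats, and the other 3 trained rats lay above them. Its difference was -0.01 within the set of 3 arrays and 0.52 within the set of 5. Its other 2 probe sets were higher by 0.30 each. Rptor, of the mTORC1 complex, differed by 0.15 and Akt1 by -0.17, with 1 of its 2 other probe sets of opposite sign. Of 27 genes of insulin, IGF and growth signalling, Igf1 and Rptor (2 higher) and Igfbp5 and Akt1 (2 lower) had an unadjusted p under 0.05, against 2.22% higher and 4.55% lower of all genes, with a median of -0.02. Cebpb and Cited4, named above for training-induced growth, differed by -0.07 ± 0.20 and -0.17 ± 0.09 (SE), with 1 other Cited4 probe set of opposite sign. The single low rat for Cebpb was trained rat 2 at 7.36, where the other 7 LCR rats read 7.86 to 8.47.

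Immediate early genes, which answer a stimulus within minutes, leaned lower in both lines. Of 23 measured, 16 were lower in trained LCR rats, where 52% of all genes were, and 4 at an unadjusted p under 0.05, against 4.55% of all genes. None was higher at that p, and the 4 became 2 with the sets of arrays as a block. The median difference was -0.18 in LCR and -0.17 in HCR training. Egr1, a zinc finger factor, read 7.22, 8.07, 7.68 and 8.32 in trained rats, against 7.87, 9.07, 8.40 and 9.69 in sedentary rats. Its difference was -0.93 ± 0.39 (SE), and in HCR training it was -1.06. Fos, of the AP-1 factor, differed by -1.17 ± 0.60 (SE, adjusted p = 0.904) in LCR and by -1.40 in HCR rats, where the other Fos probe set had the opposite sign in LCR rats. Ier2 differed by -0.41, Ier3 by -0.33 and Jund by -0.31, the last with 1 of 2 other probe sets of opposite sign. Sedentary rat 6 was the highest LCR rat for Egr1, Fos, Ier3 and Jund, and without it the difference of Egr1 was -0.62. The alternatives moved the list's median between -0.25 and -0.06 and its count at that p between 2 and 8, without a member higher at that p.

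Of 18 measured clock genes, 2 were higher at an unadjusted p under 0.05, against 2.22% of all genes, and 4 were lower, against 4.55%. The 2 higher became 0 with array weights, and the 4 lower ran from 2 to 4 over the alternatives. Bmal1 and Npas2, activators of the loop, differed by 0.20 and 0.39. Per1, Cry2 and Bhlhe41, which repress it, differed by -0.21, -0.26 and -0.25, and the output factor Hlf by -0.37. Bhlhe41 read 7.34, 7.33, 7.51 and 7.53 in trained rats, against 7.58, 7.61, 7.67 and 7.85 in sedentary rats, without overlap. Cry2 had 1 other probe set and Hlf 1 of 3 with the opposite sign. The sources used here name no hour of killing, and its part was not tested.

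Of 15 genes of the hypoxia response, 4 had an unadjusted p under 0.05, 3 of them higher and 1 lower in trained rats, against 2.22% and 4.55% of all genes. Ndrg1, a hypoxia-induced gene of differentiation, read 8.08, 8.12, 7.93 and 8.25 in trained rats, against 7.90, 7.78, 7.76 and 7.73 in sedentary rats, a difference of 0.30 ± 0.08 (SE) without overlap. Hmox1, which breaks down haem, differed by 0.58 and the vasodilator peptide Adm by 0.24. Ddit4, an inhibitor of mTORC1, read 7.75, 7.73, 7.48 and 7.83 in trained rats, against 8.38, 7.86, 8.04 and 8.48 in sedentary rats. Its difference was -0.49 ± 0.16 (SE) without overlap, against 0.13 in HCR training. Vegfa, the main vessel growth factor, differed by -0.07 ± 0.08 (SE, with 1 other probe set of opposite sign) and the heat shock gene Hspa1a by -0.08 ± 0.18 (SE).

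Of 14 markers of smooth muscle cells and pericytes, 10 were higher, where 48% of all genes were, and 3 at an unadjusted p under 0.05, against 2.22% of all genes. Their median of 0.07 was 0.03 without trained rat 3 and 0.10 without sedentary rat 5. Myh11, smooth muscle myosin, differed by 0.34 (with 1 other probe set of opposite sign), Tagln by 0.39 and Lmod1 by 0.15. Myh11 read 8.83, 8.46, 8.67 and 8.72 in trained rats, against 8.29, 8.20, 8.49 and 8.32 in sedentary rats, which overlap only at trained rat 2. Of 24 collagen and basement membrane genes, 2 were higher and 2 lower at that p, against 2.22% and 4.55% of all genes, with a median of -0.02. Col15a1 of the basement membrane differed by -0.38 without overlap and Col1a2 by -0.32, while Col1a1 and Col3a1, the main fibrillar collagens, differed by -0.08 ± 0.17 and -0.15 ± 0.17 (SE). Lox, which crosslinks collagen, differed by 0.25 and also by 0.32 in HCR training. Of 20 genes of matricellular proteins, metalloproteinases and their inhibitors, 12 were lower, where 52% of all genes were, and the median was -0.04. At that p 1 was higher, the matricellular protein Thbs4 (0.43, with overlap), and 3 were lower. Among the 3 was the metalloproteinase Mmp15 (-0.25, without overlap).

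Of 15 macrophage markers, 14 were higher in trained rats, where 48% of all genes were, and 1, Cd14, had an unadjusted p under 0.05, against 2.22% of all genes higher at that p. Their median of 0.15 was 0.05 without trained rat 4, 0.23 without trained rat 2 and 0.08 with the sets of arrays as a block. Cd14, a coreceptor for bacterial lipopolysaccharide, read 6.70, 6.98, 6.94 and 7.40 in trained rats, against 6.78, 6.78, 6.72 and 6.76 in sedentary rats. Trained rat 4 was the highest for Cd14, for the complement gene C1qb (9.10, against 8.33 to 8.56 in the other trained rats) and for Mx2, an interferon-induced gene (7.22, against 4.94 to 5.18). Without rat 4 no macrophage marker had a p under 0.05. The median of 24 interferon genes, 0.06, ran from -0.09 to 0.24 over the alternatives, so its sign is not settled. RT1-Ba, a class II antigen-presenting chain that varies between rat haplotypes, read 9.94, 9.94, 9.91 and 10.88 in trained rats, against 8.16, 9.70, 9.95 and 8.28 in sedentary rats. Its other 3 probe sets differed by 1.40, 0.01 and -1.26. Vcam1, an adhesion molecule of activated endothelium, differed by 0.48.

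Of 23 genes of cholesterol synthesis and handling, 3 were lower at an unadjusted p under 0.05, against 4.55% of all genes, and none was without sedentary rat 6. Abcg1, which exports cholesterol, differed by -0.67 ± 0.24 (SE, with 1 of 2 other probe sets of opposite sign). Cyp11a1, the first enzyme of steroid hormone synthesis, differed by -0.43 in LCR and by 0.27 in HCR rats. The 21 genes listed by name for the trained heart gave 3 that were higher at an unadjusted p under 0.05 (Pdk4, Ucp3, Igf1) and 1 that was lower (Acta1), and 17 that were neither, with differences from -0.50 to 0.06. The share of the 21 at that p was 19.05%, against 6.77% of all genes. Members and lists were chosen with earlier results of these data known, so this contrast is not a test.

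**Figure D5:**
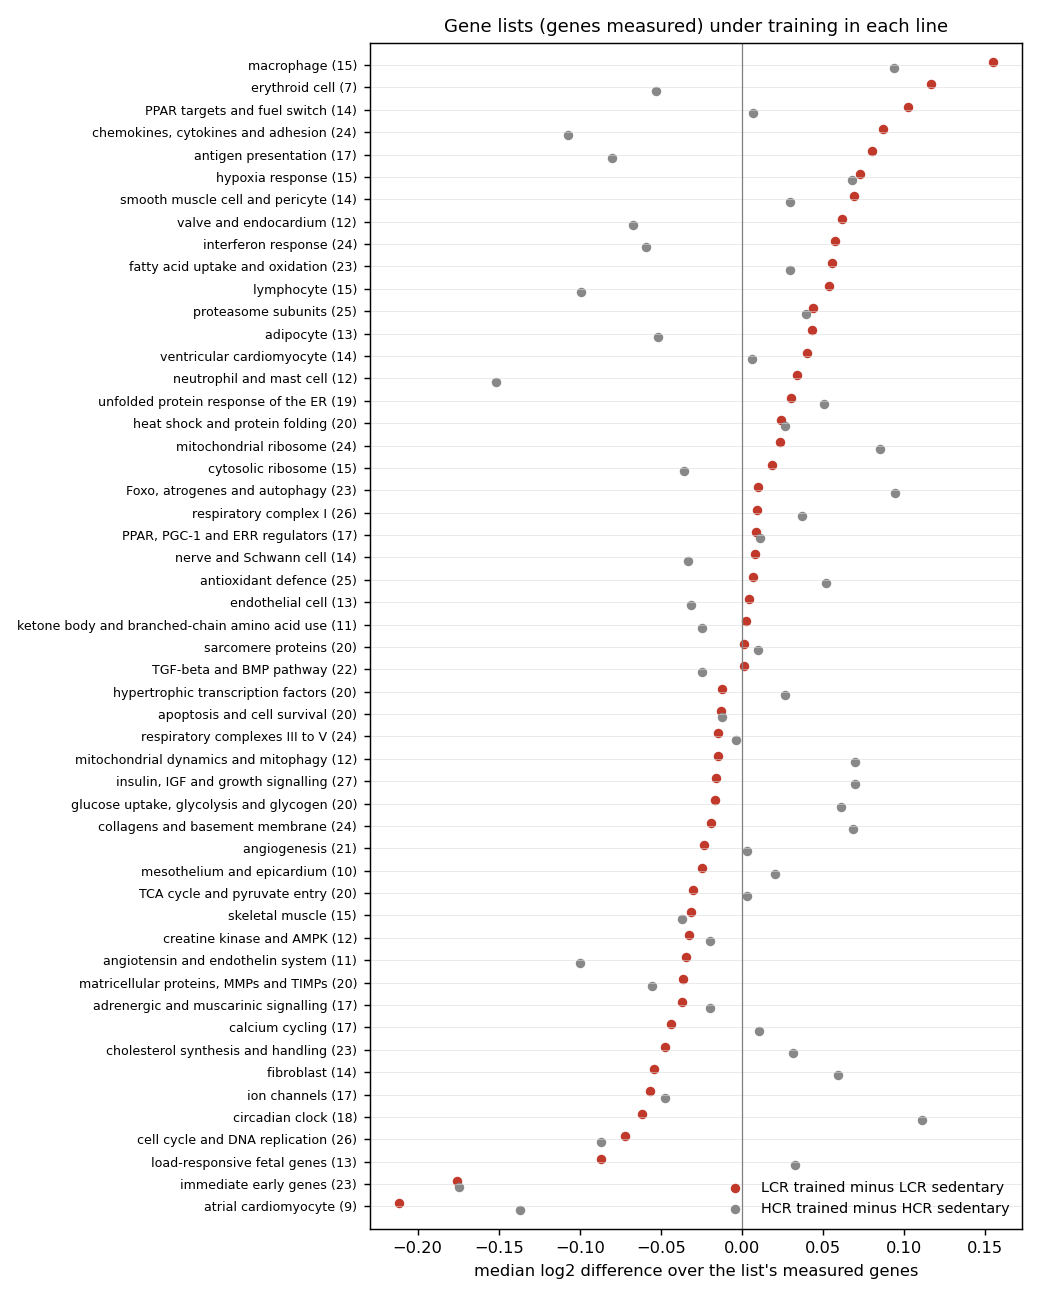
Median log2 difference (horizontal axis) over the measured genes of each list, for trained minus sedentary LCR rats (red) and trained minus sedentary HCR rats (grey); the number of genes is in brackets. In LCR rats the medians run from -0.21 for atrial muscle markers to 0.15 for macrophage markers, and the immediate early genes lie at the same place in both lines.

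Set beside training in HCR rats, no probe set responded differently in LCR rats at the threshold used. The lowest adjusted p for that difference was 0.251, of the called probe set, and 3068 probe sets (9.88%) had an unadjusted p under 0.05. Training in HCR rats itself gave 0 called probe sets and 4308 (13.9%) at an unadjusted p under 0.05, in the same limma fit. After the called probe set, the genes of lowest p for a different response were Paqr6, Mmaa and Camk2d, with lower differences in LCR than in HCR rats. Paqr6, a membrane progestin receptor, differed by -0.21 in LCR and by 0.49 in HCR rats, a difference in response of -0.70 (adjusted p = 0.368). Mmaa, which serves mitochondrial cobalamin metabolism, differed by -0.28 in LCR and by 0.28 in HCR rats. On the other side stood Rdx (0.27 in LCR and -0.14 in HCR rats), Dmbt1 (0.24 and -0.12) and LOC102549347 (0.11 and -0.28). The differences have opposite signs in the lines for all 6 genes. Picking genes for a different response favours such signs, so they are not a result.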

How the data were processed

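The authors deposited log2 values made by robust multiarray averaging (RMA) of Affymetrix rat arrays, 1 per rat: per the series' design text, perfect-match probes were background-corrected, quantile normalized over arrays, log-transformed and summarised per probe set. The log base is not stated and was taken as 2 from the range of values, 3.24 to 14.54. Per the submitters' processing notes, RMA and limma were used; versions are not given in the sources used here. The number of arrays limits the precision. Whether rats of a group were littermates is not stated in the sources used here.

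From the deposited values, 57 spiked-in controls of 31099 probe sets were left out. The platform annotation gave 1 gene symbol to 20826 probe sets, several to 436 and listed none for 9780. Group means were fitted to all 16 arrays in limma 3.58.1 (R 4.3.3), with moderated variances on 12 residual degrees of freedom, and p adjusted by Benjamini-Hochberg over 31042 probe sets. Array summaries were compared by two-sided exact permutation tests. The steps were tested on simulated data.

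Genes named are those called, else up to 12 per direction of lowest p whose groups do not overlap, 21 preset genes of the trained heart, the 3 per direction of lowest p for the difference between lines, and members of 38 pathway and 14 cell type lists. Lists count each gene by its brightest probe set. The probe sets of the non-overlapping genes are those of lowest p. Members and lists were chosen with earlier results of these data known. List members named beyond the member of lowest p were chosen after their values were seen. Alternatives covered scaling, filters, variance models, array weights, blocks and each rat left out.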

Additional observations from a re-analysis of the deposited data

Results flagged for a closer look

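In 236 groups of 4 LCR rats, 1 gene and 1 group at a time, 15 held a rat far from the other 3; chance gives about 1 in 20 such groups. Among trained rats, rat 3 stood apart for Angptl4 (8.302, next 5.422), Cry2 (8.022) and Pln (13.73), rat 4 for RT1-Ba (10.88, next 9.943) and Mx2 (7.217, next 5.179), and rat 1 for Cdkn1a (10.14) and Atp2a2 (14.02). Among sedentary rats, rat 2 stood apart for Plin2 (10.11), C1qb (8.646), Ucp2 (10.71) and Nppb (12.09, next 11.56), rat 6 for Scyl3 (5.349), Kcnh2 (7.849) and Atp2a2 (14.03), and rat 5 for Ccnb1 (6.057). For Pln and both Atp2a2 groups the gap was under 0.1 on the log2 scale, between rats that lay close together.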

How the results depend on the processing

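The LCR training count of 1 became 0 with only the 8 LCR arrays, 0 with 1 probe set per gene (which leaves out the unnamed probe set by construction), and 1728 at an unadjusted p under 0.05. Leaving out each LCR rat gave 1 to 4 called probe sets, 1374916_at among them each time. The count was 3 without trained rat 1, 4 without trained rat 2, 2 without trained rat 4, 2 without sedentary rat 2 and 2 without sedentary rat 5. With rat number as a replicate block the count was 0. Rat numbers 2 and 3 occur in both LCR groups, and deviations of same-numbered rats correlated at -0.23 and -0.03. These 2 values cannot decide whether the numbers pair rats, and the sources used here do not say what they mark. The difference of 1374916_at was 1.00 with the 8 arrays (adjusted p = 0.247), 1.02 with the replicate block (adjusted p = 0.0863) and 0.90 to 1.07 with each rat left out. HCR training gave 0 calls and 2 with its 8 arrays, 27 with array weights, 8 with the replicate block, 12 with the first residual component as covariate and 0 to 39 with rats left out, 39 without trained HCR rat 6. The difference between lines gave 1 call, 1374916_at, with that covariate. The covariate and the sets of arrays as a block were chosen after seeing the data.

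The signs of the differences that follow reversed. With the replicate block Myl7 was 0.52, Adipoq -0.028, Cs 0.054, Mki67 -0.021 and Nppb -0.23. Nppb was -0.032 with the sets as a block, Atp2a2 -0.010 after quantile normalization and Sod2 -0.0040 with centred arrays. With each rat left out, the differences ran from -0.28 to 0.048 for Col3a1, -0.19 to 0.12 for Col1a1, -0.12 to 0.000062 for Vegfa, -0.0090 to 0.12 for Slc2a4, -0.0077 to 0.12 for Top2a, -0.77 to 0.071 for Myl7, -0.19 to 0.043 for Myh7, -0.062 to 0.0078 for Cs, -0.24 to 0.13 for Cebpb, -0.016 to 0.071 for Mki67, -0.12 to 0.074 for Ppargc1a, -0.034 to 0.17 for Nppb, -0.022 to 0.037 for Sod2 and -0.047 to 0.099 for Adipoq. The cause of these moves was not tested.

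With 4 rats a group, calls depend on the spread that all 4 groups share in the fit. Array values give no read depth, and probe sets near the lowest levels understate differences.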
